A study of Mus musculus with 2 samples.

Results

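Zinc transporters and metallothioneins were examined in MIN6 cells, a glucose-responsive insulinoma line derived from a transgenic C57Bl/6 mouse and used here at passages 15 to 20. The genes were the exporters Slc30a8, Slc30a1, Slc30a5, Slc30a6, Slc30a7 and Slc30a9, the importers Slc39a6 and Slc39a14, and the metallothioneins Mt1 and Mt2. They were given as a list, and every probe whose accession maps to one of them was taken, which gave 13 probes of 10 genes among 39417 probes and 20649 named genes. The FTO array held RNA of cells transduced with a lentivirus made from the PLVX-IRES-ZsGreen-mFTO vector, which encodes mouse FTO and the green fluorescent protein ZsGreen. The control array held RNA of cells transduced with virus of the empty vector PLVX-IRES-ZsGreen, so both carried a lentivirus and ZsGreen. Whether transduced cells were sorted or cloned, and what share of them carried the virus, is not given in the sources used here. There was 1 array per condition on the same slide. No difference therefore has a replicate check or a p-value, and precision is limited by there being a single array on each side.

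Zinc is stored at high concentration in the secretory granules of beta cells, where it holds insulin in compact crystals. SLC30 proteins (ZnT) move zinc out of the cytosol, either across the plasma membrane or into organelles, and SLC39 proteins (ZIP) move it into the cytosol. Metallothioneins are small cysteine-rich proteins that bind zinc and copper. Their genes and Slc30a1 are classic targets of MTF1, a transcription factor that senses zinc and binds metal response elements.

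The bases upstream of Mt2, Mt1 and Slc30a1 are shown because these are the members known to respond to zinc itself. They are the 250 bases before the start that RefSeq annotates in GRCm38.p6, with the metal response element cores TGCACNC and TGCGCNC, searched on both strands, in capitals. The windows are chr8:94172368-94172617 for Mt2, chr8:94178839-94179088 for Mt1 and chr1:191906531-191906780 for Slc30a1, all on the plus strand.
Mt2: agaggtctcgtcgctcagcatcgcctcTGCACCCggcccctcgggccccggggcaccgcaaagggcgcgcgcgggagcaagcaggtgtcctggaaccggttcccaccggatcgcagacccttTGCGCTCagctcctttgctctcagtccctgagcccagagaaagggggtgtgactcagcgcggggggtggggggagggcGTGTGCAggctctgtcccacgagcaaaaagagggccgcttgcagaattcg
Mt1: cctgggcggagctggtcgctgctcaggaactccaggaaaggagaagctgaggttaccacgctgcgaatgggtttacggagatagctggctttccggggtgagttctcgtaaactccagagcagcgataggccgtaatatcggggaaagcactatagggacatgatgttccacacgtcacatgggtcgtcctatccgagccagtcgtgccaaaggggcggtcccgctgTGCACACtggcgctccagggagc
Slc30a1: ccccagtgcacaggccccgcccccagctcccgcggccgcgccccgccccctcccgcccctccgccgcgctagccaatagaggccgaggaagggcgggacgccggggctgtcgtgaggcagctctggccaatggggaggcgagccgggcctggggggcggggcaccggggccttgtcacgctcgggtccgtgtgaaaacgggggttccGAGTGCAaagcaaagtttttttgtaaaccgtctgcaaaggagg

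The Mt2 window held 3 cores, and 1.26% of 32851 windows of this length in the table held at least 3. Mt1 and Slc30a1 held 1 core each, as did 21.4% of all windows at the least. With the 50 bases after the annotated start included, Mt2 held 4 cores, Mt1 held 3 and Slc30a1 held 2, and the shares of all windows with at least as many were 0.517%, 1.97% and 7.11%. Of the 10 genes, 7 had an entry in the table. Slc30a5 held 1 core in the 250 bases and Slc30a6, Slc30a7 and Slc30a9 held 0. A match is a string of letters and not a site shown to be bound.

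All 13 probes were well above background on both arrays. Their raw median pixel signal lay between 382 and 312929, against a local background of 24 to 40, and none was near the saturation value of 778190. Signals are given as the intensity deposited for each spot, and differences as log2 of FTO over control after quantile normalization. The error of a difference combines the error estimates that the scanner software gave for both spots, and was 0.20 for every member. For each member probe it was 0.144 to 0.145 on each array, and thus a nearly fixed share of the signal. A probe of the iron genes described below, printed 10 times, had a combined error of 0.20 as well. This error stands for the reading of a spot only and does not follow the spread measured between repeated spots. Values within it or over it are therefore compared with a nearly fixed limit. Probes printed 10 times on each array with a log2 signal over 12 give a smaller spread of 0.08 for the difference of a pair of single spots. The median log2 difference of 12371 named probes with a mean log2 signal over 10 was 0.01, and the central 95% of them lay between -0.29 and 0.29.

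On the FTO array the whole distribution of signals was shifted, with a 75th percentile that was 0.43 higher on the log2 scale. In a patch of 6 of 35 blocks of that array, repeated spots with a log2 signal between 4.5 and 8 had lost signal. Slc39a14 was the 1 member whose probe lay there. The control array had 2 such blocks elsewhere, with no member in them. Fto itself had signals of 7301 on the FTO array and 5179 on the control array and a log2 difference of 0.06 with an error of 0.20. The vector carries the coding sequence of Fto, and which part of the transcript the probe reads is not given in the sources used here. The names FTO array and control array are therefore those of the labels. All 8 beta cell markers examined were well above background on both arrays, among them Ins2, with signals of 276722 and 320363. Glucagon (Gcg), a hormone of alpha cells, also had a bright probe, with signals of 253078 and 242452. All 3 alpha cell markers, Sst of delta cells, Ppy of PP cells, 3 of 4 acinar cell markers (Cpa1, Cela1 and Pnlip) and the duct cell marker Krt19 were also above background on both. Krt19 read 1195 and 959, and the 4 acinar markers summed to 151 and 126. Hhex, Ptf1a and Sox9, factors of delta, acinar and duct cells, did not pass background on either array. In RNA of a whole culture, fewer cells of a type and less RNA per cell cannot be told apart.

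None of the 10 genes differed by more than 2-fold between the arrays, where 3.21% of 18509 named genes did so with any probe. None differed by more than 1.5-fold either, where 8.49% of named genes did. Each member had a brightest probe with a mean log2 signal over 10, and among the 9988 named genes whose brightest probe had a mean log2 signal over 10, 0.13% differed by more than 2-fold. A count of 0 among 10 genes is therefore close to what genes of such signal showed in general. The median difference of the members, each by its brightest probe, was 0.06, against 0.01 for all named genes tested. Of the 10 genes 6 lay above 0 and 4 below, from Slc30a1 at 0.21 to Slc30a9 at -0.09.

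**Figure D1:**
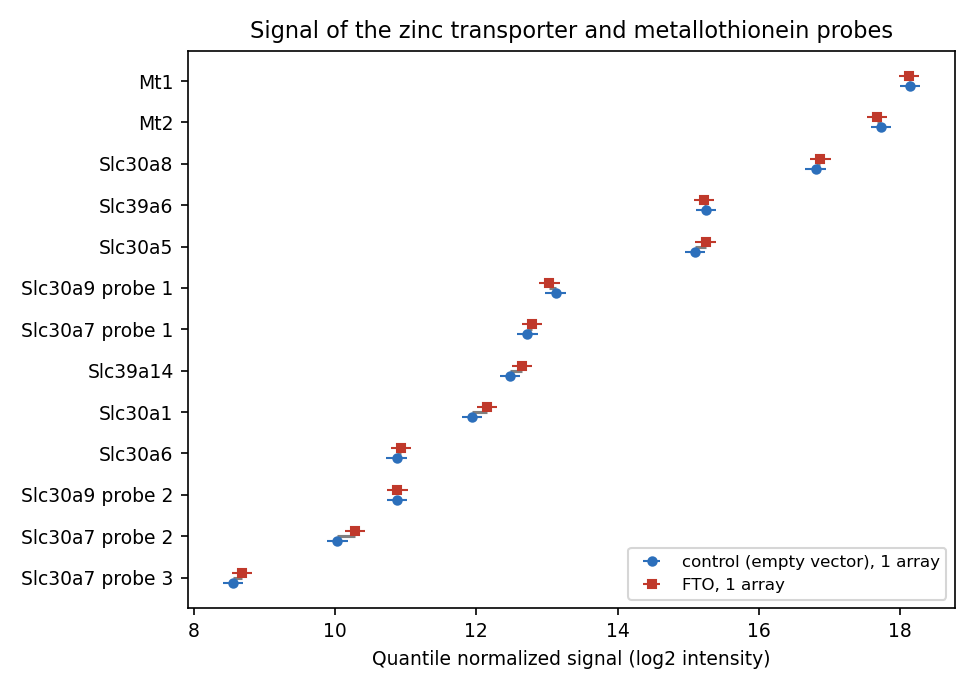
Quantile normalized signal (log2 intensity) of each of the 13 probes on the FTO array (squares) and the control array (circles), 1 array each, with bars for the error estimate of each spot. The pair of points lies close together for every probe, while the probes span from about 8.6 to 18.1.

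Slc30a8 encodes ZnT8, which loads zinc into insulin granules and is abundant in beta cells. Its single probe (NM_172816) had a signal of 132404 on the FTO array and 103908 on the control array. After normalization the log2 signals were 16.87 and 16.80. The difference was 0.07 with an error of 0.20, a 1.05-fold difference that is smaller than the spot error and also smaller than the spread of 0.08 between repeated spots. Its sign depended on the processing. The difference was 0.01 with cyclic loess, 0.02 with normexp background correction and -0.08 when each array was scaled by its 75th percentile. By brightness of the probe Slc30a8 stood behind Mt1 and Mt2 and ahead of the other 7 genes. Brightness also depends on the probe, so this order of spots does not order the amounts of RNA.

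Slc30a1 encodes ZnT1, the exporter of the plasma membrane. Its probe (NM_009579) had signals of 5258 on the FTO array and 3395 on the control array. The log2 difference of 0.21, with an error of 0.20, was the highest of the 10 genes by their brightest probes and corresponds to 1.16-fold. It exceeded the spread between repeated spots and lay inside the central 95% of bright named probes. Under the other 3 ways of processing it was between 0.19 and 0.26, so its direction did not turn. The other MTF1 targets in the list, Mt1 and Mt2, had differences below 0.

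Slc30a5 and Slc30a6 encode ZnT5 and ZnT6, which form a heterodimer that brings zinc into the Golgi and early secretory pathway. Slc30a5 (NM_022885) had signals of 45107 on the FTO array and 30225 on the control array. Its log2 difference was 0.15 with an error of 0.20. Slc30a6 (NM_144798) read 2239 and 1634, a log2 difference of 0.06 with an error of 0.20. Both partners of the heterodimer thus lay above 0 and within the spot error.

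Slc30a7 encodes ZnT7, another zinc transporter of the early secretory pathway, and was read by 3 probes of the same accession (NM_023214). The brightest had signals of 8212 on the FTO array and 5825 on the control array and a log2 difference of 0.06. The second read 1429 and 919, a log2 difference of 0.25, the largest of the 13 probes. The third read 463 and 337, a log2 difference of 0.13. All 3 probes lay above 0, and they spread over 0.19 although they are assigned to 1 transcript.

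Slc30a9 encodes ZnT9, a zinc transporter of mitochondria. Its brighter probe (NM_178651) had signals of 9719 on the FTO array and 7682 on the control array and a log2 difference of -0.09. The dimmer probe read 2173 and 1642, a log2 difference of 0.004, which lay within the spot error of 0.20 of the brighter probe. It was between -0.04 and -0.02 under the other 3 ways of processing. The brighter probe stayed below 0 under all 4, between -0.10 and -0.09.

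Slc39a6 encodes ZIP6, an importer of the plasma membrane. Its probe (NM_139143) had signals of 44332 on the FTO array and 33729 on the control array. The log2 difference came to -0.04 (spot error 0.20) and became 0.01 with cyclic loess. Slc39a14 encodes ZIP14, which carries zinc and also iron and manganese. Its probe, assigned to 1 transcript variant (NM_001135151), had signals of 7477 and 4944. The log2 difference came to 0.17 (spot error 0.20) and lay between 0.16 and 0.17 under the other 3 ways of processing. The probe lies in the patch of lost signal on the FTO array, which was found with dimmer spots than this one. The part of the patch in the value was not tested.

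**Figure D2:**
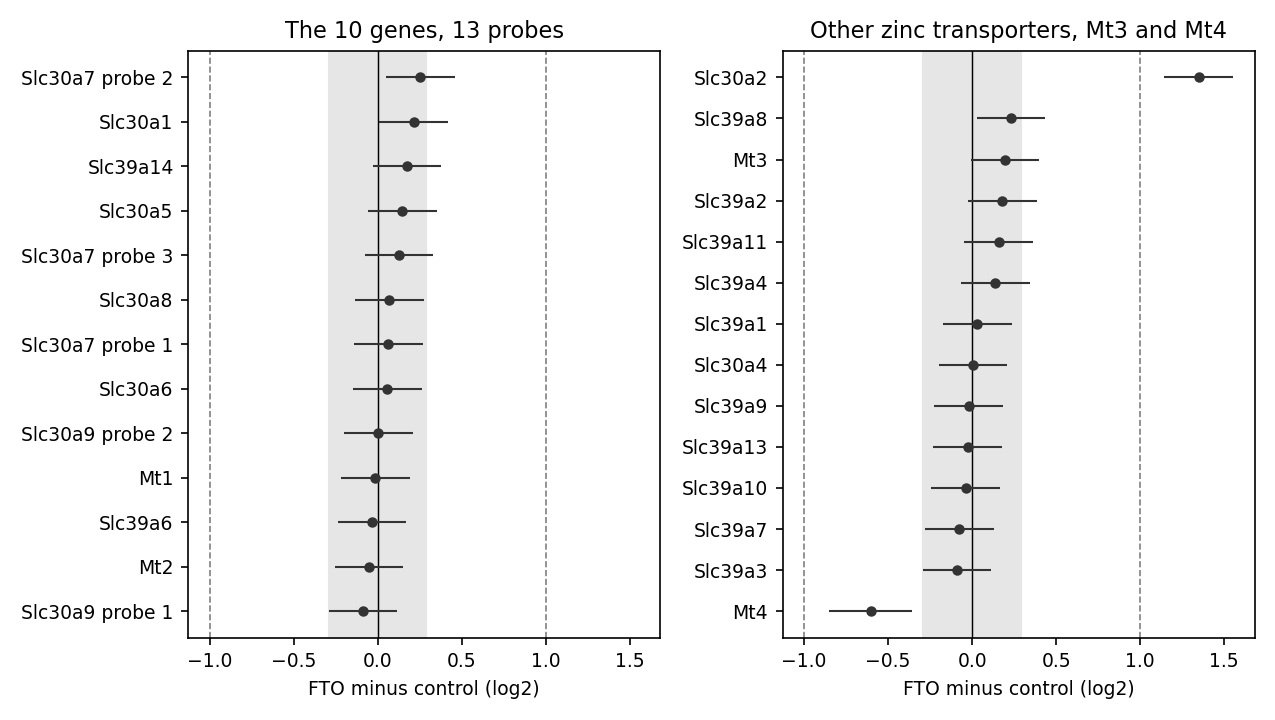
Log2 difference of FTO minus control after quantile normalization for the 13 member probes (left) and for the other zinc transporters, Mt3 and Mt4 detected above background on both (right), with bars for the combined spot error. The grey band is the central 95% of named probes with a mean log2 signal over 10 (-0.29 to 0.29) and dashed lines mark 2-fold; all 13 member probes lie in the band, and Slc30a2 at 1.35 and Mt4 at -0.60 lie outside it.

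Mt1 and Mt2 were among the brightest of all probes. Mt1 (NM_013602) had signals of 289147 on the FTO array and 283912 on the control array, which placed it 22nd and 18th of 39417 probes. Mt2 (NM_008630) had signals of 217885 and 209560, in the 149th and 124th place. After quantile normalization the log2 differences were -0.01 for Mt1 and -0.05 for Mt2, each with an error of 0.20.

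These values moved more with the processing than those of any other member. With each array scaled by its 75th percentile the log2 differences were -0.40 for Mt1 and -0.37 for Mt2, and with cyclic loess they were -0.27 and -0.26. With normexp they were -0.02 and -0.15. Both genes lay below 0 under all 4 ways of processing. Neither reached 1.5-fold under any of them.

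The bright end of the arrays as a whole behaved in the same way. Before normalization the median log2 difference was 0.45 for probes with a mean log2 signal between 14 and 15, and 0.32 between 16 and 17. Over the 244 probes of the brightest range it was 0.09. Mt1 and Mt2, at 0.03 and 0.06 before normalization, stood a little below the median of those probes and inside their central 95%, from -0.08 to 0.32. After scaling by the 75th percentile the 244 probes had a median of -0.33 and a central 95% of -0.51 to -0.10, so the values of -0.40 and -0.37 were not apart from them. Slc30a8, at 0.35 before normalization, lay in the group of probes from 16 to 17, whose median after this scaling was -0.11. What made the brightest spots differ less between the arrays was not tested.

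**Figure D3:**
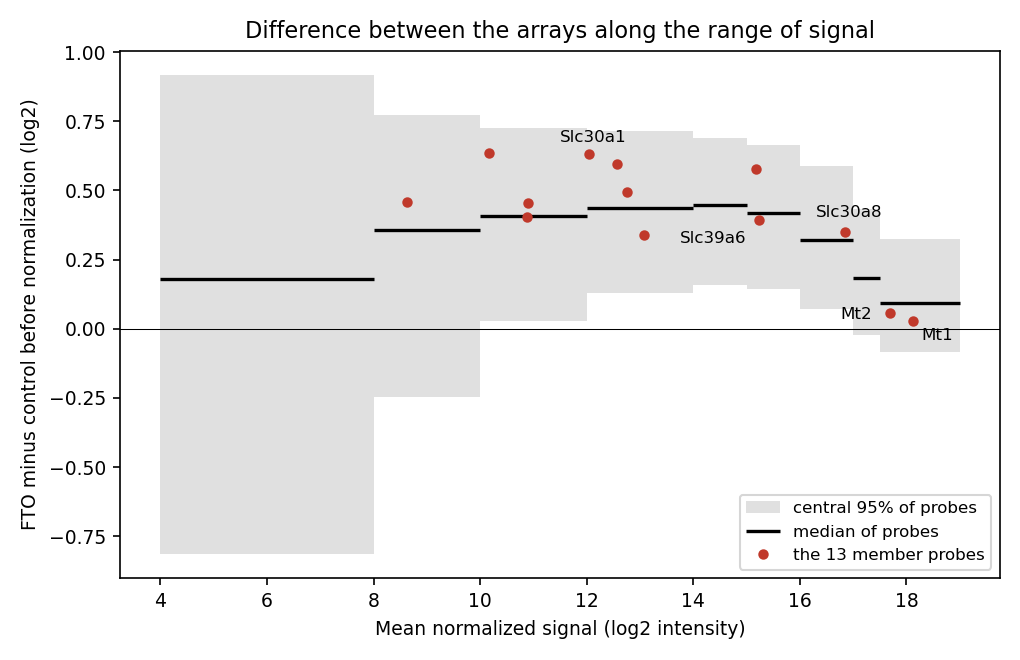
Log2 difference of FTO minus control before normalization against the mean normalized signal (log2 intensity), with the median (black line) and the central 95% (grey) of the probes detected above background on both in each range of signal, and the 13 member probes (red). The median falls from 0.45 at signals of 14 to 15 to 0.09 in the brightest range, where Mt1 and Mt2 lie.

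In the order of differences after quantile normalization, by the brightest probe of each gene, Slc30a1 was followed by Slc39a14, Slc30a5, Slc30a8, Slc30a7, Slc30a6, Mt1, Slc39a6, Mt2 and Slc30a9. Slc30a8 thus stood in place 4 of 10. Its place was 6 with normexp and 7 with both cyclic loess and the 75th percentile scaling. Every gap between neighbours in this order was smaller than the combined error of the genes, in 9 of 9 pairs. The same held for the gap of each of the 9 other genes to Slc30a8, the widest being to Slc30a9, -0.16 with an error of 0.29. Between the ends of the order, Slc30a1 and Slc30a9, the gap was 0.30 with an error of 0.29. The combined error was thus nearly as wide as the whole order, so neighbours were almost certain to fall under it. The spread of 0.08 between repeated spots is smaller, though it is for a single difference and not for a gap. From Slc30a8, the gaps to Slc30a1 (0.14), Slc30a9, Mt2 (-0.12), Slc39a14 (0.11), Slc39a6 (-0.10) and Mt1 (-0.084) were larger in size than this spread. Those to Slc30a5 (0.0776, against 0.0785 for the spread), Slc30a7 and Slc30a6 were smaller. Apart from Slc30a8, 4 of the 5 exporters lay above 0, with a median of 0.06, while 1 of the 2 importers did and neither of the metallothioneins. Of all 18509 named genes tested, 9551 lay above 0 and 8933 below. By the brightest probes only Slc30a1 exceeded its spot error, so these counts do not set the kinds of gene apart.

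**Figure D4:**
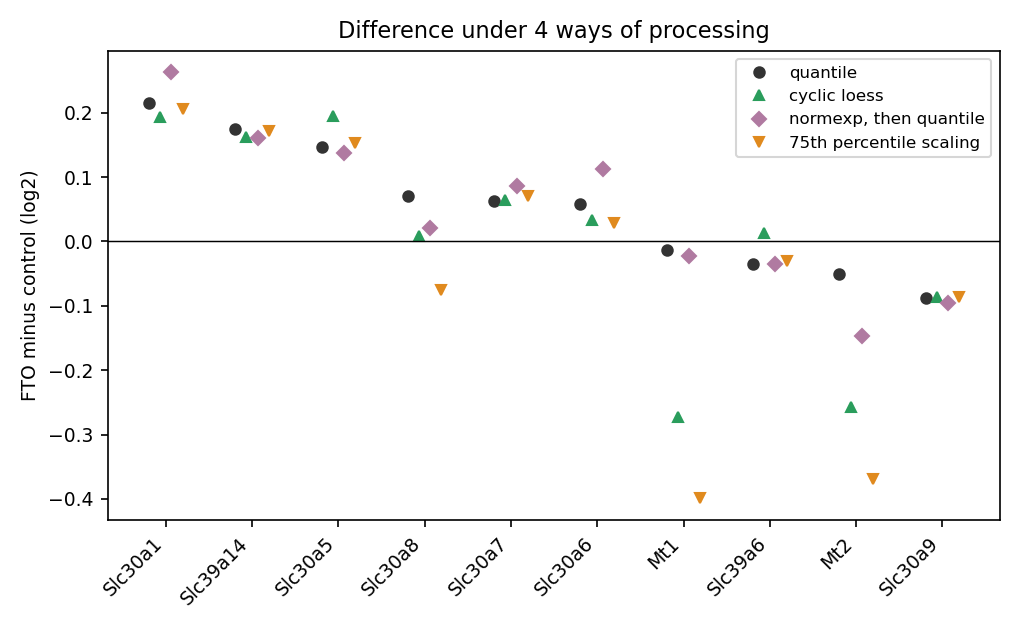
Log2 difference of FTO minus control of each member by its brightest probe under 4 ways of processing (quantile normalization, cyclic loess, normexp background correction followed by quantile normalization, and scaling by the 75th percentile). Mt1 and Mt2 range widely, from -0.01 to -0.40 for Mt1, Slc30a8 and Slc39a6 cross 0, and the other genes keep their sign.

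The other zinc transporters and metallothioneins comprised 18 genes, and 16 of them were detected above background on 1 array or both. Their median log2 difference was -0.01, with 8 genes above 0 and 8 below. Slc30a3, the transporter of synaptic vesicles, and Slc30a10, known for manganese export, were not well above background on either array. Slc30a4, a transporter of endosomal and secretory vesicles, had signals of 55738 on the FTO array and 41488 on the control array and a log2 difference of 0.006.

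Slc30a2, which fills secretory vesicles with zinc in tissues such as the mammary gland, was the 1 gene of this list that was higher by more than 2-fold. Its single probe (NM_001039677) had signals of 380 on the FTO array and 125 on the control array, both well above background. The log2 difference came to 1.35 (spot error 0.21), which is 2.55-fold. It stayed over 2-fold under the other ways of processing, at 1.33 with cyclic loess, 1.03 with normexp and 1.18 after scaling by the 75th percentile. Among 2199 named genes whose brightest probe had a mean log2 signal between 7 and 9, 1.82% differed by more than 2-fold. That share is over the whole array, while the Slc30a2 probe lies in the patch of lost signal on the FTO array. Without the blocks of lost signal, where this probe is left out, the count of named genes past 2-fold was 304 and not 594. What the patch contributes to the Slc30a2 value was not tested. No second probe reads this gene, so the difference rests on 1 spot per array.

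Slc39a5, an importer of intestine and pancreas, was the other gene past 2-fold as the signals stand. Its probe did not pass background on the FTO array and reached 13.95 on the control array, and so it was at least 1.07-fold lower. This bound sets the control signal against the lowest signal that passed background on the FTO array. Mt3, the metallothionein known from brain, read 11183 and 7285, a log2 difference of 0.20 with an error of 0.20. Mt4, known from stratified epithelia, read 32.9 and 46.8, a log2 difference of -0.60 with an error of 0.25. Mt1, Mt2, Mt3 and Mt4 are neighbours on chromosome 8, and their differences did not share a direction. The probes of Slc39a5 and Mt4 lie in the patch of lost signal as well, and its part in their values was not tested. Mtf1, whose product senses zinc, had a brightest probe that read 5231 and 3914, a log2 difference of 0.004, and its other probes were at 0.08 and 0.28.

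No gene of the copper list, the iron list or the list of genes that respond to metals, oxidants and glucocorticoids differed by more than 2-fold by its probes above background. Of all named genes 3.21% did so with any probe, so a count of 0 in lists of 10 or 11 genes does not set them apart. Of 10 copper genes 5 lay above 0 and 5 below, with a median of 0.01, from Sco2, a copper chaperone of cytochrome oxidase, at -0.25 to Cox17, which delivers copper to mitochondria, at 0.28. Of 10 iron genes 5 lay above 0 and 5 below, with a median of -0.0001, from the ferrireductase Steap3 at -0.60, whose probe lies in the patch of lost signal, to the iron sensor Ireb2 at 0.34. The metal, oxidant and glucocorticoid response list of 11 genes had 7 above 0 and 4 below and a median of 0.04, from the cystine transporter Slc7a11 at -0.29 to Gclm, a subunit of glutathione synthesis, at 0.14.

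Zinc in beta cells is stored with insulin, and the genes of granule cargo together with factors that bind the Slc30a8 gene formed a last list. Of its 12 genes 3 lay above 0 and 9 below, with a median of -0.07, from Ins2 at -0.24 to Neurod1, a transcription factor of beta cells, at 0.36. A second Neurod1 probe was at 0.05. After scaling by the 75th percentile the median of the list was -0.36, against -0.33 for the 244 probes of the brightest range of signal. The list also holds dimmer genes. Pdx1, the factor required for the beta cell fate, had a log2 difference of -0.03, and Mafa, an activator of the insulin genes, of -0.16, each with an error of 0.20. Ins1 was at -0.14, and Slc30a8 at 0.07. After scaling by the 75th percentile Ins1 was at -0.46, Ins2 at -0.64 and Slc30a8 at -0.08, all below 0. Probes as bright lay below 0 in general under this scaling. Ins1 and Ins2 belong to the brightest range, whose central values ran from -0.51 to -0.10. Ins1 was inside these limits and Ins2 below them. Slc30a8 stood near the median of -0.11 of probes from 16 to 17. After quantile normalization the differences of the genes named here were of the size of the spot error or below, except for Ins2 and the brighter Neurod1 probe.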

How the data were processed

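RNA of MIN6 cells was hybridized to one-color Agilent mouse arrays, 1 for each condition, with groups taken from the labels. The authors deposited the intensity of each spot from Agilent Feature Extraction 11.0.1.1, which subtracts background and detrends the surface, with no normalization between arrays. The authors also deposited log2 values of 33870 probes, quantile normalized in GeneSpring per the methods, and these served as an alternative. From the spot tables, control spots and outlier spots (148 for FTO, 141 for control) were left out. Spots of 1 probe were averaged as log2 values, followed by quantile normalization (limma 3.58.1, R 4.3.3). Python 3.11.15 and pandas 2.3.3 did the rest. The steps were checked on simulated arrays that differed by the same shift at all signals. Between the real arrays the shift depended on the signal, and this check could not show how the steps handle that.

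Probes were named by accession through the RefSeq annotation of GRCm38.p6, which named 27218 of 39417 probes. The array design uses an older build, so coordinates are given only for the promoter windows. A gene counted as past 2-fold where any of its probes was, among those that passed background on 1 array or both. For other values a gene was represented by its brightest probe. Blocks of lost signal are those, of 76 rows and 17 columns, where at least 15% of spots of repeated probes were more than 0.5 (log2) below the median of their probe. Only the 79 repeated probes with a control log2 signal between 4.5 and 8 were used for this, so loss at brighter signals was not examined. All 10 members were named with every probe, and from 5 further lists the genes with a 2-fold difference or the lowest and highest. Outside this rule Slc30a3, Slc30a4, Slc30a10, Mt3, Mt4, Mtf1, Pdx1, Mafa and Ins1 were named after their values were seen. The members and lists were chosen with earlier results of these data known. Likeness of patterns was not computed, since 2 arrays hold no pattern.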

Additional observations from a re-analysis of the deposited data

How the results depend on the processing

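No member passed 2-fold under any of 10 alternatives, which were 4 other sources or normalizations of the values, both filters, the floor, the brightest probe, the array without the blocks of lost signal, and a 1.5-fold threshold. For the members, the filters, the floor, the brightest probe and the removal of blocks could not have raised this count. All 13 probes passed background on both arrays, and none was past 2-fold to begin with. The deposited values are quantile normalized as well. The median of the members ranged from -0.001 (75th percentile scaling) to 0.06. The difference of Slc30a8 ranged between -0.08 and 0.07, within the spot error of 0.20 of the value given. That error is for the difference of 1 probe and is no measure of how far a median over 10 genes could move. Among the single members, Mt1 and Mt2 moved by more than the spot error with the 75th percentile scaling and cyclic loess, and the other 32 of 36 values did not. The count of named genes past 2-fold, 594, moved with the processing. It was 62 with normexp, 257 where probes had to pass background on both, 1111 with no filter on background, 304 without the blocks of lost signal and 1572 at 1.5-fold. The split also depended on the scaling, with 243 higher and 351 lower genes after quantile normalization, 202 and 438 after cyclic loess, and 144 and 727 with the 75th percentile scaling. The limits that define the blocks of lost signal were set after these arrays had been seen. No paired analysis was possible because each condition has 1 array. For the same reason no replicate could be left out.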
